A study of Mus musculus with 6 samples.

Results

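Expression of 9 hedgehog pathway genes was compared between mouse cells labelled wild-type and knockout for the kinase SLK: the ligands Shh and Ihh, the receptor Ptch1, the co-receptor Gas1, the ligand antagonist Hhip, the transducer Smo, and the transcription factors Gli1, Gli2 and Gli3. They were taken by name from the 22180 gene symbols measured. Probe sets were to be chosen by the highest mean over the 6 arrays, but each gene had 1 probe set annotated to its symbol alone, so all 9 members entered the comparison without a choice. The set itself was selected on the Hhip values, whose difference between the genotypes was already known. Every value of the 9 genes in that comparison is therefore a description, and the p-values of the fit over all genes are given as its output, not as support.

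Total RNA was measured on 6 biotin-labelled one-colour arrays, 3 of cells labelled SLK wild-type and 3 of cells labelled SLK knockout. Both groups were untreated NeuNDL-derived cells grown with serum and a mammary epithelial supplement. NeuNDL is an oncogenic, constitutively signalling mutant of Neu, the rodent ErbB2 receptor, used to drive mammary tumours in mice, and both groups carry it. The protein kinase SLK belongs to the Ste20 group and is known from work on migration and focal adhesions. The series names passages 9, 19 and 29, but the labels tie no passage, line or clone to an array, and the sources used here do not say which part of Slk was deleted. Any p-value thus reflects only how far these samples spread, which may be technical. In cells profiled as a whole, fewer cells of a type and less RNA per cell cannot be told apart.

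In hedgehog signalling the secreted ligands bind Patched receptors, which otherwise hold the seven-pass membrane protein Smoothened inactive. Active Smoothened signals through the primary cilium to the Gli factors: Gli1 is an activator and itself a target gene, while Gli2 and Gli3 are processed into activator or repressor forms. Hhip is a cell-surface and secreted protein that binds and sequesters the ligands, and Hhip, Ptch1 and Gli1 are textbook targets whose transcription rises when the pathway is active. In the embryonic mammary bud the pathway is held off by the repressor form of Gli3.

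Because Hhip and Ptch1 are both known as Gli targets and, of the pair, only Hhip was called here, their promoters are shown side by side. They come from RefSeq on GRCm38.p6, from 250 bases before to 50 after an annotated start, both on the minus strand: chr8:80057959-80058258 for Hhip and chr13:63565686-63565985 for Ptch1. Capitals mark the bases from the start onward.
Hhip: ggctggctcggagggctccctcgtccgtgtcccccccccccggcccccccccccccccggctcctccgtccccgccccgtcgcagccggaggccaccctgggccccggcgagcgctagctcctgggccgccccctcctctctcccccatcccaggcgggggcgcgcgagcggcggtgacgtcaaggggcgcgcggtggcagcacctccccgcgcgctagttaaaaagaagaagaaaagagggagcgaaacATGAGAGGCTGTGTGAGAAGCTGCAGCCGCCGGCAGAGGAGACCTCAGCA
Ptch1: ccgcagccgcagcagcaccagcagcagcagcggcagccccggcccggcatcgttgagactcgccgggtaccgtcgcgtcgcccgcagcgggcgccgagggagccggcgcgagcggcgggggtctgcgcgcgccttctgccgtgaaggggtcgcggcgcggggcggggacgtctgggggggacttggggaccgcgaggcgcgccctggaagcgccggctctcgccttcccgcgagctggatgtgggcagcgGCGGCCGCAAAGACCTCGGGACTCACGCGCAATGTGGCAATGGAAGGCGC
Both windows were rich in G and C, at 73.7% for Hhip and 76.3% for Ptch1 against a median of 52.7% over all 32851 RefSeq windows, and 5.1% of all windows were at or above Hhip. The Gli consensus GACCACCCA was searched on both strands. Of the 7 members with a window (Gas1, Gli2, Gli3, Hhip, Ihh, Ptch1 and Smo), 0 held it exactly and 0 held it with at most 1 mismatch, where 0.253% and 6.74% of all windows did. The closest stretch in the Hhip window had 2 mismatches, as in those of Gli2, Ihh and Smo. In the Ptch1 window it had 3, as in those of Gas1 and Gli3. The share of all windows at 2 or 3 mismatches was not counted. This says only that these letters are not in these 300 bases.

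Slk itself checked the labels: its value was 8.28 ± 0.07 (SD, n = 3) in wild-type and 7.18 ± 0.03 (SD, n = 3) in knockout cells, and its log2 fold change, as everywhere knockout minus wild-type, was -1.10 (SE 0.06, limma adjusted p = 0.0021). The Slk signal fell 2.15-fold but stayed above the median gene on the knockout arrays, at 7.14 to 7.21, with 76.4% to 77.4% of genes lower. Array medians lay between 3.93 and 3.97, and no array stood apart (Pearson's r between arrays across probe sets 0.990 to 0.994). Of the epithelial markers, Epcam (7.29 to 7.75 over the 6 arrays) and Krt8 (10.31 to 10.50) read above the median gene, while Krt19 (3.48 to 3.61) and Esrp1 (3.50 to 3.80) read below it. Of the leukocyte markers, Ptprc read below it (2.03 to 2.33), while Cd14 (7.88 to 8.28) and Cd68 (7.06 to 7.20) read above it. Values are on a log2 scale, on which the median gene lay at 4.39. Levels of different genes rest on different probes and are not compared with each other.

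Hhip, the antagonist that binds hedgehog ligands outside the cell, was the only member past the threshold, and it was higher in the knockout. Its log2 value was 3.09, 3.25 and 3.09 on wild-type arrays 1 to 3, and 4.13, 4.25 and 4.35 on knockout arrays 1 to 3. All 3 knockout arrays lay well above all 3 wild-type arrays, and the gap between the groups was wider than the spread within either. The means were 3.14 ± 0.09 and 4.24 ± 0.11 (SD, n = 3 each), a log2 fold change of 1.10 (SE 0.08, 95% interval 0.91 to 1.29), or 2.14-fold (1.88 to 2.45). The fit over all genes gave it an adjusted p of 0.0059 (limma), which records how it came to be chosen. Among the 72 genes called higher, Hhip had the 13th largest rise.

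The Hhip signal was dim. On the wild-type arrays 25.2% to 29.4% of genes had a lower value, and on the knockout arrays 46.0% to 49.3%, so it stayed below the median gene on every array. No detection calls were used, and values of this kind can compress the fold changes of dim genes, which was not tested here. The call was lost without wild-type array 3 (adjusted p = 0.052, log2 fold change 1.08) and kept without any other single array, with log2 fold changes of 1.05 to 1.16 over the 6 arrays left out in turn.

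As background for the members, limma called 97 of 22180 genes (0.437%) at an adjusted p under 0.05. Of all genes 0.325% were called higher and 0.113% lower in the knockout. Among the members 1 was called higher and 0 lower, and nothing is read from that count, because the set was chosen around its one call. Of the 8 members other than Hhip, limma called 0, and 0 had an unadjusted p under 0.05, against 10.2% of all genes.

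**Figure D1:**
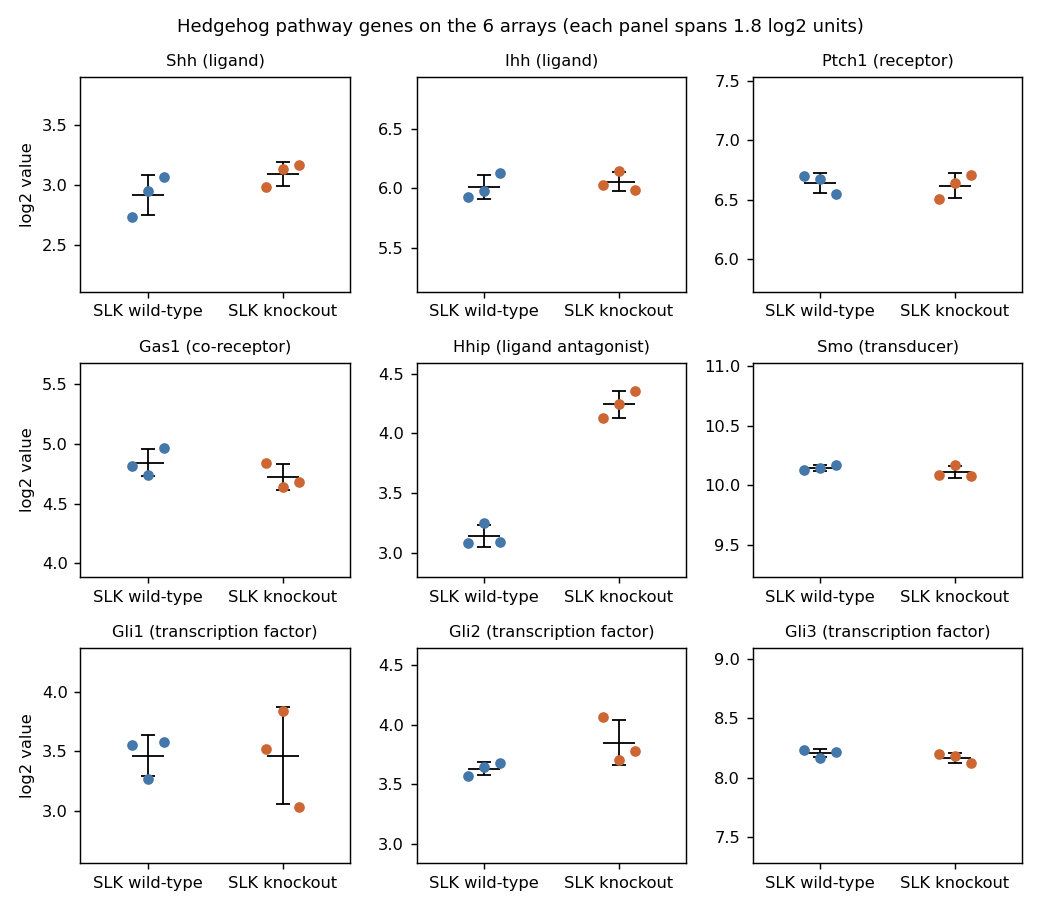
Log2 value of each of the 9 hedgehog genes on the 3 wild-type (blue) and 3 knockout (orange) arrays, each point 1 array, with the group mean and SD in black; the height of every panel is the same in log2 units. The Hhip arrays separate by genotype, from at most 3.25 to at least 4.13, while in the other panels the groups overlap or, for Gli2, lie close together.

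The ligands were read at low to middling signal and showed no call. Shh, Sonic hedgehog, had values of 2.73, 2.95 and 3.07 in wild-type and 2.98, 3.13 and 3.17 in knockout cells. The groups overlapped, because knockout array 1 lay below wild-type array 3. Its log2 fold change was 0.18 (SE 0.10), with a 95% interval of 0.96-fold to 1.33-fold (limma adjusted p = 0.62). The probe set was dim, with 18.9% to 27.5% of genes lower across the 6 arrays. Ihh, Indian hedgehog, read 5.93, 5.97 and 6.13 in wild-type and 6.03, 6.14 and 5.99 in knockout cells. These groups overlapped throughout, with a log2 fold change of 0.04 (SE 0.07, limma adjusted p = 0.89) and an interval of 0.91-fold to 1.16-fold.

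At the receptors no call was made. Ptch1 binds the ligands, holds Smo in check and, like Hhip, is a target gene. Its values were 6.70, 6.67 and 6.55 in wild-type and 6.51, 6.64 and 6.71 in knockout cells, so that the knockout arrays spanned the wild-type ones. The log2 fold change was -0.02 (SE 0.07, limma adjusted p = 0.95), and the 95% interval ran from 0.87-fold to 1.11-fold. Gas1, a membrane-anchored co-receptor that helps present the ligands to Ptch1, read 4.82, 4.74 and 4.96 in wild-type and 4.84, 4.64 and 4.68 in knockout cells. The groups overlapped through knockout array 1, and the log2 fold change was -0.12 (SE 0.08, limma adjusted p = 0.69), with an interval of 0.80-fold to 1.06-fold.

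Smo, the transducer, had a bright probe set, with 98.5% to 98.7% of genes below it. It read 10.13, 10.14 and 10.17 in wild-type and 10.09, 10.17 and 10.08 in knockout cells. The arrays of both groups lay within 0.1 log2 unit of each other, with a log2 fold change of -0.04 (SE 0.05, limma adjusted p = 0.86) and an interval of 0.90-fold to 1.06-fold.

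The 3 Gli factors differed in how closely they were measured. Gli3, which acts mainly as a repressor, read 8.23, 8.17 and 8.22 in wild-type and 8.20, 8.18 and 8.12 in knockout cells. Its groups overlapped, and the log2 fold change of -0.04 (SE 0.05, limma adjusted p = 0.86) had an interval of 0.90-fold to 1.06-fold. Gli2, the main activator in many tissues, read 3.57, 3.65 and 3.68 in wild-type and 4.06, 3.71 and 3.78 in knockout cells. The knockout arrays lay just above the wild-type ones without overlap, as did 16.9% of all genes in one direction or the other. Its log2 fold change was 0.22 (SE 0.10, limma adjusted p = 0.52), with an interval of 0.99-fold to 1.37-fold. It was 0.11 without knockout array 1, and after quantile normalization the Gli2 groups overlapped.

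Gli1, the activator that is itself a target gene, read 3.55, 3.27 and 3.58 in wild-type and 3.52, 3.84 and 3.04 in knockout cells. Knockout array 2 was the highest and knockout array 3 the lowest of the 6, so the knockout group enclosed the wild-type group. The log2 fold change was -0.00050 (SE 0.20, limma adjusted p = 1.00), and the SD of 0.40 among knockout arrays was the largest of the members in either group. Its interval ran from 0.71-fold to 1.40-fold. The sign of the Gli1 difference turned with single arrays left out (-0.19 to 0.21).

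The 95% interval of Hhip, from 0.91 upward, lay above the upper ends of all 8 other members, of which the highest was 0.49 for Gli1. These intervals are not adjusted for the number of genes, and the difference between Hhip and the other members was not tested. The 8 members without Hhip had a median log2 fold change of -0.01, against 0.0038 over all genes tested.

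**Figure D2:**
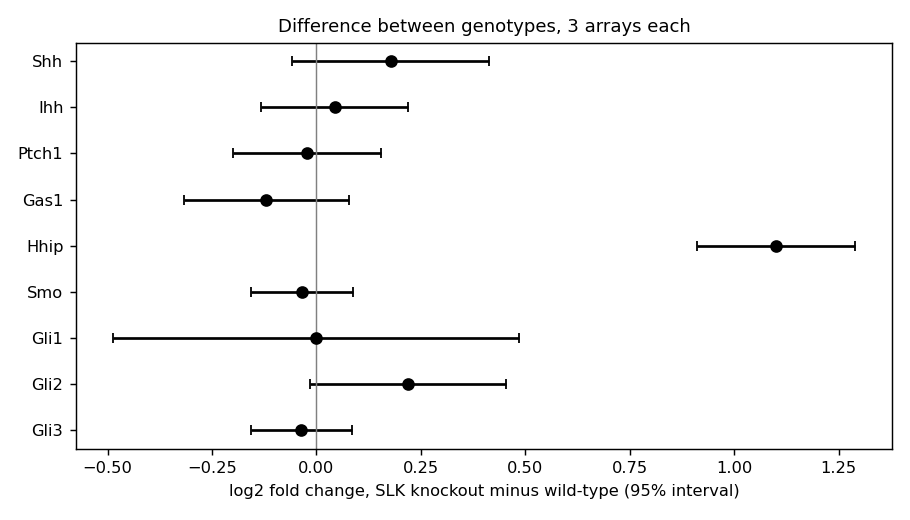
Log2 fold change of the 9 hedgehog genes, knockout minus wild-type, with the 95% interval of the limma fit (3 arrays per group). Hhip lies at 1.10, and the intervals of the other 8 genes include 0.

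A further 133 genes of the pathway were listed by role, of which 123 were measured. Limma called 1 of the 123 higher and 1 lower, beside the 0.437% called of all genes, and their median log2 fold change was 0.02. The groups did not overlap for 33 of them, or 26.8%, beside 16.9% of all genes, and 18 had an unadjusted p under 0.05, or 14.6%, beside 10.2%.

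Among 17 measured genes listed for making, releasing or receiving the ligands, 1 rose, Disp2. It is a relative of the Dispatched protein that releases lipid-modified ligand from the producing cell. The list also took in Hhipl1, Hhipl2, Ptchd1 and Ptchd4, which are named for their likeness to Hhip or Patched. Disp2 read 4.14, 3.99 and 4.18 in wild-type and 4.62, 4.70 and 4.66 in knockout cells. The groups were clearly apart, with a log2 fold change of 0.56 (SE 0.07), or 1.47-fold (limma adjusted p = 0.029). The call was lost whichever array was left out, with adjusted p between 0.089 and 0.13. For Disp1, the main releasing protein, the log2 fold change was -0.27 (SE 0.07, limma adjusted p = 0.29). The glypicans Gpc3 and Gpc6, heparan sulfate proteoglycans of the cell surface, had 0.31 (SE 0.05, limma adjusted p = 0.093) and -0.36 (SE 0.07, limma adjusted p = 0.15), so neither passed. In alternative settings Gpc6 was called lower, without the dimmest 50% of genes and with either intensity trend. Hhipl1 had 0.21 (SE 0.08, limma adjusted p = 0.46) and was higher on every knockout array than on any wild-type array. Disp1, Gpc3, Gpc6 and Hhipl1 were named after their values were seen. The 1 call stands beside 0.437% called of all genes. Of the 17 genes, 5 (29.4%) had an unadjusted p under 0.05, beside 10.2% of all genes, and the groups did not overlap for 8 (47.1%), beside 16.9%. The list had a median of -0.03, with 8 of 17 means higher in the knockout.

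Of the 33 measured genes listed for transduction between Smo and the Gli factors, limma called 0, beside 0.437% of all genes. An unadjusted p under 0.05 was reached by 2 (6.06%), beside 10.2%. The list also took in the transcription factors Glis1, Glis2, Glis3, Zic1 and Zic2, which are not steps between Smo and Gli. The smallest p belonged to Arrb1, beta-arrestin 1, at 0.23 on the log2 scale (SE 0.06, limma adjusted p = 0.25). Prkacb, a catalytic subunit of protein kinase A, which phosphorylates Gli proteins, had 0.16 (SE 0.05, adjusted p = 0.37), and Csnk1e, a casein kinase 1, had 0.16 (SE 0.07, adjusted p = 0.52). With either intensity trend Prkacb was called higher. All log2 fold changes of this list lay between -0.18 and 0.23, around a median of -0.00016.

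Of 37 measured genes of the primary cilium, the organelle through which Smo signals, limma likewise called 0, beside 0.437% of all genes, and 2 (5.41%) had an unadjusted p under 0.05, beside 10.2%. Bbs2 and Bbs4, subunits of the BBSome that carries membrane proteins out of the cilium, had log2 fold changes of 0.29 (SE 0.06, adjusted p = 0.18) and 0.16 (SE 0.05, adjusted p = 0.32). Bbs2 was called higher in 3 of the alternative settings (without the dimmest 50% of genes, and with either intensity trend). Ift27, a small GTPase of the intraflagellar transport particle, had 0.14 (SE 0.06, adjusted p = 0.51). The list's median was 0.03, with 25 of 37 means higher in the knockout, beside 11429 of 22180 over all genes.

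Among 36 measured genes known as hedgehog targets in one tissue or another, 0 passed the threshold as higher and 1 fell, Bmp4, which encodes a bone morphogenetic protein. Bmp4 read 6.76, 6.83 and 6.75 in wild-type and 6.25, 6.34 and 6.17 in knockout cells. All knockout arrays were lower, by 0.53 on the log2 scale in the mean (log2 fold change -0.53, SE 0.06), or 1.45-fold (limma adjusted p = 0.029). This call, too, was lost whichever array was left out, with adjusted p between 0.072 and 0.14. Bmp4 is the target of many other signals besides hedgehog. The forkhead gene Foxf2 had a log2 fold change of 0.50 (SE 0.09, limma adjusted p = 0.12) and Cntfr, the ciliary neurotrophic factor receptor, one of 0.37 (SE 0.06, limma adjusted p = 0.080). Ccnd1, cyclin D1, had -0.0059 (SE 0.05, limma adjusted p = 0.98) and Mycn 0.04 (SE 0.16, limma adjusted p = 0.95). Foxf2 and Cntfr were higher on every knockout array than on any wild-type array. Foxf2 was called higher with the robust trend, and Cntfr without the dimmest 30% or 50% of genes. Nrp1 and Nrp2 had log2 fold changes of -0.19 (SE 0.05, limma adjusted p = 0.23) and -0.17 (SE 0.05, limma adjusted p = 0.32). Both were lower on every knockout array than on any wild-type array. They were called lower with either trend, Nrp1 also without the dimmest 50% of genes. Ccnd2 had 0.25 (SE 0.07, limma adjusted p = 0.26) and Tbx3 0.25 (SE 0.07, limma adjusted p = 0.32). Bcl2 had 0.20 (SE 0.06, limma adjusted p = 0.37) and Foxd1 0.36 (SE 0.15, limma adjusted p = 0.47). Ccnd2, Tbx3, Bcl2 and Foxd1 were higher on every knockout array than on any wild-type array. Foxf2, Cntfr, Ccnd1, Mycn, Nrp1, Nrp2, Ccnd2, Tbx3, Bcl2 and Foxd1 were named after their values were seen. The 1 call stands beside 0.437% called of all genes. Of the 36 genes, 9 (25%) had an unadjusted p under 0.05, beside 10.2% of all genes. Among these 9, Bmp4, Nrp1 and Nrp2 were lower in the knockout and the others higher. The groups did not overlap for 11 (30.6%) of the 36, beside 16.9%. The target list had a median of 0.02, with 21 of 36 means higher in the knockout.

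**Figure D3:**
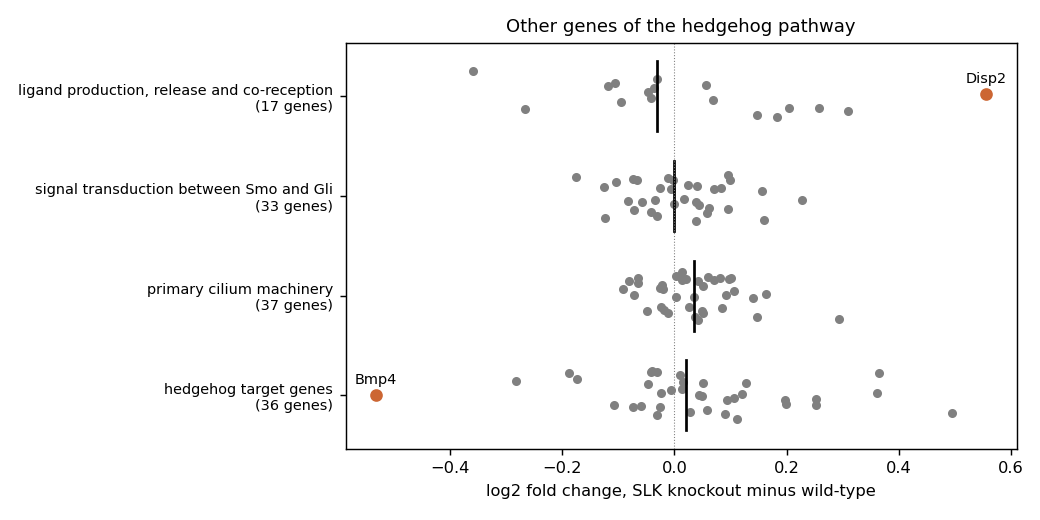
Log2 fold change, knockout minus wild-type, of the other measured hedgehog pathway genes in 4 lists; each point is 1 gene, the black bar is the list median and orange points passed an adjusted p of 0.05. Disp2 at 0.56 and Bmp4 at -0.53 are the calls, and the list medians lie between -0.03 and 0.03.

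The genes whose profile over the 6 arrays was nearest to that of Hhip were found by the root mean square distance between log2 values after each gene's mean was taken off. The nearest was Ptprn, a receptor-type phosphatase family member of dense-core granules, at a distance of 0.027 log2 units. Ptprn read 6.40, 6.58 and 6.43 in wild-type and 7.50, 7.63 and 7.68 in knockout cells. Like Hhip it was highest on array 2 within the wild-type group and highest on array 3 within the knockout group. Then came Parvb, the focal adhesion adaptor beta-parvin (0.054), B4galt6, a galactosyltransferase (0.097), Apod, a lipocalin (0.11), and Lama4, the laminin alpha 4 chain (0.11). The 5 genes had log2 fold changes of 1.03 to 1.26. Each was called higher in the fit over all genes, as were 0.325% of all genes. Their choice by nearness to Hhip largely fixed this, so nothing is read from it. The call of B4galt6 was lost without wild-type array 3, knockout array 1 or knockout array 3, while the other 4 stayed past the threshold without any single array. None of the 5 is in the pathway lists, which hold 123 of the 22180 genes measured. Over 6 arrays in 2 groups this distance mostly measures the size of the difference between the genotypes.

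**Figure D4:**
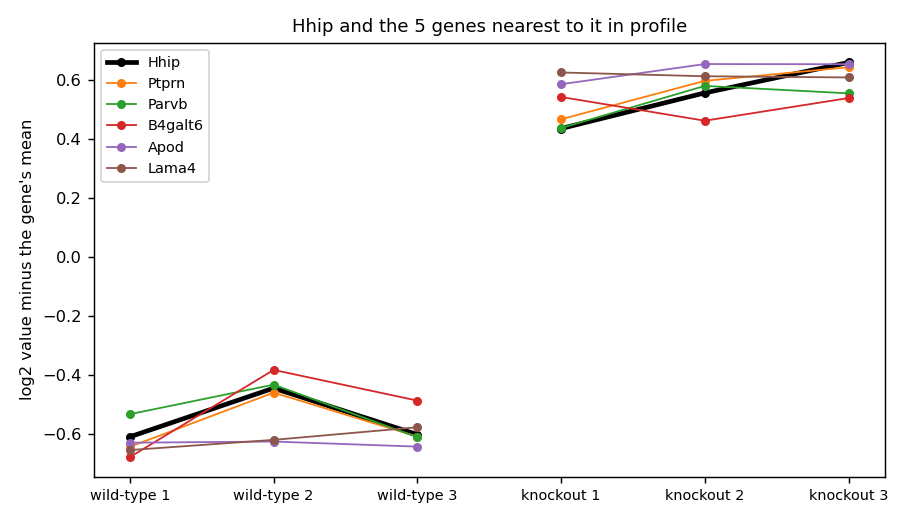
Log2 value minus the gene's mean over the 6 arrays for Hhip (thick black line) and the 5 genes nearest to it (coloured lines), for wild-type arrays 1 to 3 and knockout arrays 1 to 3; the lines join arrays of a group only to guide the eye. Ptprn tracks Hhip within 0.027 log2 units (root mean square), and the others within 0.11.

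By the RefSeq gene order of GRCm38.p6, the measured genes next to Hhip on chromosome 8 held no call. Anapc10, a subunit of the anaphase-promoting complex, had a log2 fold change of -0.06 (SE 0.06) and Abce1 -0.06 (SE 0.06) on one side. On the other side the dim gene Frem3 had 0.14 (SE 0.11) and Smarca5, a chromatin remodeller, -0.13 (SE 0.09). Limma called none of these neighbours (adjusted p from 0.69 to 0.80), and none had an unadjusted p under 0.05. The members themselves are spread over the genome, with Ptch1, Gas1 and Gli3 on chromosome 13, Ihh and Gli2 on chromosome 1, and each of the others on a chromosome of its own.

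Markers of the cell types a tumour culture can hold were set beside the Hhip difference. The mean log2 value of 13 epithelial markers was 7.10 to 7.14 on the wild-type and 6.99 to 7.01 on the knockout arrays. Of the 13, 2 were called lower, Krt14 and Cdh1, beside 0.113% of all genes, and 6 had a higher mean in the knockout. Krt14, the basal keratin, went from 8.38 ± 0.07 to 7.72 ± 0.03 (SD, n = 3 each), and its call was kept without wild-type array 1 and lost without each of the others (adjusted p up to 0.073). The call of Cdh1, E-cadherin, was lost each time a single array was dropped (adjusted p 0.098 to 0.13) and when its probe sets were averaged (log2 fold change -0.27, adjusted p = 0.45). Epcam had a log2 fold change of -0.35 (SE 0.06, limma adjusted p = 0.083) and Cldn7, a claudin, -0.48 (SE 0.09, limma adjusted p = 0.11). The luminal keratins Krt8 and Krt18 had 0.15 (SE 0.05, limma adjusted p = 0.37) and 0.14 (SE 0.05, limma adjusted p = 0.40). Epcam was called lower without the dimmest 30% or 50% of genes and with either intensity trend. Krt8 was called higher with either trend.

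The 12 fibroblast and stromal markers averaged 5.12 to 5.15 on the wild-type and 5.05 to 5.15 on the knockout arrays, with members differing both ways. Of the 12, 1 was called lower, Pdgfrb, beside 0.113% of all genes, and its call was lost without wild-type array 2 (adjusted p = 0.0503). Dcn, decorin, and Postn, periostin, had log2 fold changes of 0.43 (SE 0.08, limma adjusted p = 0.10) and 0.37 (SE 0.07, limma adjusted p = 0.11), the collagen gene Col1a1 -0.33 (SE 0.08, limma adjusted p = 0.24), and Pdgfra 0.10 (SE 0.05, limma adjusted p = 0.56). The 10 endothelial markers averaged 3.55 to 3.62 and 3.56 to 3.62, and the 9 leukocyte markers 4.13 to 4.17 and 4.18 to 4.31, with 0 called by limma in either list, beside 0.437% of all genes.

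An unadjusted p under 0.05 was reached by 6 epithelial (46.2%), 6 stromal (50%), 4 endothelial (40%) and 2 leukocyte markers (22.2%), beside 10.2% of all genes. The groups did not overlap for 61.5%, 58.3%, 30% and 33.3% of them in the same order, beside 16.9% of all genes. No marker was listed at 0, but no detection calls were used, so this does not show that each was detected. The part of these differences in the Hhip result was not tested.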

How the data were processed

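Total RNA of 6 samples was measured, and the authors deposited 1 table of log2 values for 41345 probe sets per array. The software was Affymetrix Expression Console 1.4.1.46, per the submitters' processing notes; how it corrected background, normalized and summarised, and its log base, were not given in the sources used here. Log2 was assumed because the maximum of 12.4 is above what natural logarithms of 16-bit intensities can reach (11.1). No further normalization was applied. The platform annotation named 23521 probe sets with 1 symbol, 1814 with several and 16010 were not listed; each symbol was represented by its brightest probe set on average (22180 genes).

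The genotypes were compared in limma 3.58.1 under R 4.3.3 (lmFit, eBayes, no trend, no covariate, no filter), two-sided, Benjamini-Hochberg adjusted over all genes, threshold 0.05. On simulated arrays with 22180 genes the fit recovered 47% of genes changed by 0.5 and 88% of those changed by 1 log2 unit. The number of arrays limits the precision. Members and lists were chosen with earlier results of these data known. Named genes were Slk, the members, each pathway list's calls or, with none, its 3 smallest p, the 5 genes nearest to Hhip, and 5 cell type markers. Genes named outside this rule are marked as such, apart from the neighbours of Hhip and the cell type markers other than those 5, which were also added after their values were seen. List members that were not measured under a single symbol were not analysed here. Alternatives were quantile normalization, median centring, filters on dim genes, means of probe sets, every probe set, an intensity trend, array weights, a replicate block and leaving out each array.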

Additional observations from a re-analysis of the deposited data

How the results depend on the processing

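The log2 fold change of Hhip lay between 1.05 and 1.16 in the 15 alternatives that tested it, and its adjusted p stayed under 0.05 in 13 of them. Not all of these could move it. Hhip has 1 probe set, so the means of probe sets and every probe set left its values as they were. The 30% filter, both intensity trends and the replicate block could change its SE and adjusted p but not its log2 fold change. With the intensity trend its SE was 0.106 and with the robust trend 0.105, larger than the 0.079 of the main fit. The limma adjusted p was then 2.24e-04 and 1.96e-04. Replicate numbers 1 to 3 recur in both groups. Deviations of same-numbered arrays correlated little (r over genes of 0.044, 0.017 and -0.066), and those of differently numbered arrays ran from -0.117 to 0.106. No passage is tied to an array, and a passage or batch common to arrays of one number was not tested. With the replicate block Hhip kept its log2 fold change of 1.10 with an adjusted p of 0.081, and the counts became 5 higher and 1 lower over all genes, 0 members and 0 and 0 other pathway genes. Leaving out single arrays gave 13 to 24 higher and 2 to 5 lower genes, 0 to 1 member called higher, 0 other pathway genes either way, and 2 to 4 members without overlap. Without the dimmest 30% of genes 143 rose and 63 fell, with 2 other pathway genes higher. Without the dimmest 50% the counts were 202 and 139, with 2 and 3 other pathway genes; Hhip itself was then left out, so 0 members were called and 0 lacked overlap. An intensity trend gave 265 and 176, with 3 and 4 other pathway genes, and the robust trend 264 and 179, with 4 and 4. The groups did not overlap for 1 member after quantile normalization and for 4 after median centring, where Smo and Gli3 joined Hhip and Gli2. The share of all genes without overlap was not counted in the alternatives, and groups separate more easily with an array left out. Nothing is therefore read from these member counts. With single arrays left out the log2 fold changes ran from -0.0011 to 0.10 for Ihh, -0.0685 to 0.0338 for Ptch1, -0.19 to 0.21 for Gli1 and -0.116 to 0.0155 for Ptprc, none of them called. Why the counts and values differed between settings was not tested. Low signal limits the comparison for Shh, Hhip, Gli1 and Gli2, which lay below the median gene on every array.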

Other observations

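A second probe set that names Shh together with the symbol 9530036O11Rik was outside the comparison. It read 3.53, 3.35 and 3.51 in wild-type and 3.24, 3.68 and 3.89 in knockout cells, with overlapping groups and a log2 fold change of 0.14 (SE 0.17, limma adjusted p = 0.89 over all probe sets).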
